A study of Mus musculus with 24 samples.

Results

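The transcripts of 10 genes that set the threshold of apoptosis were followed in mouse bone marrow–derived macrophages (BMDM): the pro-survival genes *Bcl2*, *Bcl2l1* and *Mcl1*, the BH3-only genes *Bcl2l11*, *Bbc3*, *Pmaip1* and *Bid*, the pore-forming effectors *Bax* and *Bak1*, and the death receptor gene *Tnfrsf10b*. They were taken by symbol from the 56884 genes of the count table, and all 10 passed the filter on low counts, among 13679 genes tested. The macrophages came from 4 female wild-type C57BL/6J mice aged 9 weeks, numbered 1, 2, 4 and 5, and each mouse gave 1 library to each of 6 groups, 24 libraries in all. Naive macrophages were grown in M-CSF alone, which every group received. All other groups had IL-4 and IL-13, each at 20 ng/ml, for 24 h. In 4 of these groups an inhibitor was added 1 h ahead of the cytokines: tunicamycin (5 µg/ml), which blocks N-glycosylation and stresses the endoplasmic reticulum, Sal003 (10 µM), which blocks dephosphorylation of eIF2α, or oligomycin (1 µM), an inhibitor of the ATP synthase of mitochondria, in 2 groups. One of the oligomycin groups also had ISRIB (1 µM), which opposes the effect of phosphorylated eIF2α, but the labels give opposite answers as to which. The titles place ISRIB in the group called oligomycin set A here, whereas the library names place it in the other, called oligomycin set B, and no difference between them was read as an effect of ISRIB.

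BCL-2 family proteins meet at the outer mitochondrial membrane. Pro-survival members hold BAX and BAK in check, BH3-only members bind the pro-survival members or the effectors when a cell is stressed or starved of growth factor, and active BAX and BAK release cytochrome c, which starts the caspase cascade. Persistent stress of the endoplasmic reticulum can act on the same switch through the transcription factors ATF4 and CHOP, whose textbook targets include *Bcl2l11*, *Bbc3*, *Pmaip1* and *Tnfrsf10b*. The question put to the data was how each of these transcripts moved with IL-4/IL-13 and with the stressors, since all measurements are of mRNA and none is of protein or of cell death.

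Libraries held 16238727 to 26725278 gene counts (median 18999998). All 6 macrophage markers examined, such as *Csf1r* and *Adgre1*, were present in every group, with a summed level of 30100 to 35800 CPM (a gene's counts scaled to the size of its library) in naive cells and 8450 to 17400 CPM in the other groups. Single markers moved with the treatments: 5 of 6 fell with the cytokines, 3 fell and 2 rose with tunicamycin, and all 6 were lower in oligomycin set A than in set B. *Csf1r*, the M-CSF receptor gene, fell to 0.22 of the IL-4/IL-13 level with tunicamycin (adjusted p = 1.5e-19) while *Adgre1*, which encodes F4/80, rose 6.83-fold (adjusted p = 7.7e-21). The summed level of 5 neutrophil granule genes moved with the treatments, lying at 38.3 to 73.9 CPM in naive libraries, 22.3 to 40.6 CPM in IL-4/IL-13 libraries and 0.0567 to 0.286 CPM with tunicamycin, where 4 of the 5 genes had at most 3 counts in every library. It was 4.72 to 8.21 CPM with Sal003, 2.65 to 4.66 CPM in set A libraries, and 18.7 to 24.5 CPM in those of set B. The summed level of 3 fibroblast genes lay between 1.12 and 72 CPM, and T cell, B cell, dendritic cell, mast cell and erythroid markers each summed to 6.37 CPM or less. In bulk libraries fewer cells of a type and less RNA per cell cannot be told apart, and the part of these other cells in the results was not tested. The naive library of mouse 2 stood apart from the other naive libraries for several of the 10 genes, and calls lost without it are given with and without it.

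The start regions of 4 of the genes are shown because the results below turn on their transcripts: *Bcl2* with oligomycin, *Mcl1* and *Bcl2l11*, which moved together across libraries, and *Bax*, which ran against *Bcl2l11*. Each run is the 250 bases ahead of the first base of the Ensembl canonical transcript in GRCm39, read 5′ to 3′ on the gene's strand, with capitals for a match to the p53 decamer, the 10-base unit of the p53 response element, which only the *Bax* run holds.
Bcl2 (chr1:106642061-106642310, minus strand): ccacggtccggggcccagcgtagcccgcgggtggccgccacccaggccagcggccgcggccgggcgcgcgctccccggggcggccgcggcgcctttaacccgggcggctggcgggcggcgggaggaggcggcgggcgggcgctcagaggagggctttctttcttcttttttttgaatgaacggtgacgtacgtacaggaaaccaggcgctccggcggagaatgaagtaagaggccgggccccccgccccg
Mcl1 (chr3:95565776-95566025, plus strand): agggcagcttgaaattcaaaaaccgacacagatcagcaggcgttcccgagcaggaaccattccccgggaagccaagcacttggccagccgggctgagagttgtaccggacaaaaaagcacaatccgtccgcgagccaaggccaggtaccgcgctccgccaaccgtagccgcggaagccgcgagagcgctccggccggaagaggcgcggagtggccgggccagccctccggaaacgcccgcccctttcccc
Bcl2l11 (chr2:127967708-127967957, plus strand): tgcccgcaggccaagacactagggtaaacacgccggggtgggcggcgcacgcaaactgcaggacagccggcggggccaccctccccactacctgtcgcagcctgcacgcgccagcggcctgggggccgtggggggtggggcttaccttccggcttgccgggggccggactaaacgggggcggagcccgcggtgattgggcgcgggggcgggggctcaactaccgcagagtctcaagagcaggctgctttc
Bax (chr7:45116326-45116575, minus strand): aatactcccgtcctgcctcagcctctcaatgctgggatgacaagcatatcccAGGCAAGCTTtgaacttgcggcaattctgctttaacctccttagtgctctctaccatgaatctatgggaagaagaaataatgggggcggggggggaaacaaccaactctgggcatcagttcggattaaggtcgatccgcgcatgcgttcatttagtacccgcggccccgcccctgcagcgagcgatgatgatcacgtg
Over windows of 300 bases (these 250 and the first 50 of the transcript), searched on both strands, the p53 decamer had a match in 3 of the 10 genes, *Bbc3*, *Pmaip1* and *Bax*, and in 7.89% of 21757 protein-coding genes. The matches began at positions -43, -103 and -198 from the transcript start, and, the decamer being palindromic, each was read on both strands. The shared core of ATF4 and CHOP sites, TGATGNAA, had a match in 0 of the 10 and in 3.84% of all windows, and the STAT6 site had a match in 0 of the 10 and in 6.82%. A match describes letters only, and the lack of one covers these windows only.

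Compared per transcript length, the 10 genes were expressed at very different levels. TPM, which scale counts by gene length as well as library size, were calculated from the counts and the union of each gene's exons. In IL-4/IL-13 libraries *Mcl1*, which encodes a short-lived pro-survival protein, was the highest at 1310 ± 22.8 TPM (SD, n = 4). The effectors followed, *Bak1* at 273 ± 12.3 TPM and *Bax* at 211 ± 12.5 TPM, and then *Bcl2l11* at 144 ± 4.25 TPM. *Bcl2l1*, which encodes BCL-XL, stood at 42.5 ± 2.33 TPM and *Bbc3*, which encodes PUMA, at 33.6 ± 3.85 TPM. *Pmaip1* (14.9 ± 1.95 TPM) and *Bid* (14.1 ± 0.762 TPM) differed by less than their spread. *Bcl2* (4.77 ± 0.577 TPM) and *Tnfrsf10b* (2.97 ± 0.42 TPM) were the lowest. With the longest transcript in place of the exon union, *Bax* (259 TPM) and *Bcl2l11* (207 TPM) came above *Bak1* (200 TPM) and *Bid* (22 TPM) above *Pmaip1* (10.8 TPM), so only the wide steps in this order are independent of the length used.

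**Figure D1:**
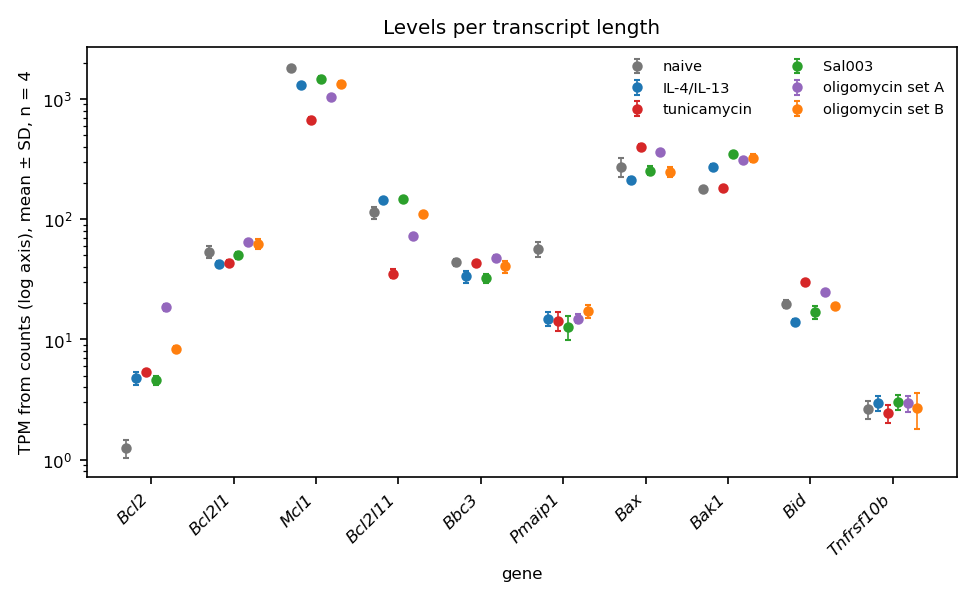
TPM of the 10 genes in each group on a log axis, as mean ± SD of 4 libraries per group. Mcl1 is the highest gene in every group, at 672 to 1810 TPM, and Tnfrsf10b stays between 2.45 and 3.03 TPM, while Bcl2 spans 1.25 TPM in naive cells to 18.6 TPM in oligomycin set A.

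In all comparisons below, the fold change and the p come from the quasi-likelihood test of edgeR, with p adjusted by Benjamini-Hochberg over the 13679 genes. The standard error (SE) was derived from that test, as the size of the log2 fold change divided by the square root of its F statistic. A gene was called at an adjusted p under 0.05, and levels are CPM on TMM-scaled library sizes. Many genes were called in each comparison, so the share of all tested genes is given first. With IL-4/IL-13, 30.1% of tested genes were called higher and 30.4% lower than in naive cells, and 11.5% were called with at least a 2.5-fold change. Of the 10 genes, 3 rose, 6 fell and 1 was not called, and *Bcl2* (higher) and *Pmaip1* (lower) passed 2.5-fold. Their median log2 change was -0.28, against -0.02 over all tested genes, and the median size of the change was 0.39 against 0.34.

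With tunicamycin against IL-4/IL-13 alone, 38.7% of tested genes were called higher, 37.6% lower and 22.6% at 2.5-fold or more, and 3 of the 10 genes rose, 4 fell and 3 were not called, with *Bcl2l11* past 2.5-fold. With Sal003, where 25.9% of tested genes were called higher, 24.6% lower and 7.71% at 2.5-fold or more, 5 of the 10 rose and 5 were not called. In oligomycin set A, with a background of 34% higher, 32.2% lower and 12.7% at 2.5-fold or more, 5 rose, 2 fell and 3 were not called, and *Bcl2* passed 2.5-fold. In set B, with 27.9% higher, 26.4% lower and 7.96% at 2.5-fold or more, 5 rose, 1 fell and 4 were not called, and none passed 2.5-fold. The 4 stressor comparisons share the IL-4/IL-13 libraries, so they are given side by side without a test of their likeness. The median size of the log2 change of the 10 genes was 0.60 with tunicamycin, 0.47 in set A, 0.24 in set B and 0.18 with Sal003, beside 0.58, 0.40, 0.28 and 0.25 over all tested genes. The differences between the 10 genes are therefore described gene by gene.

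**Figure D2:**
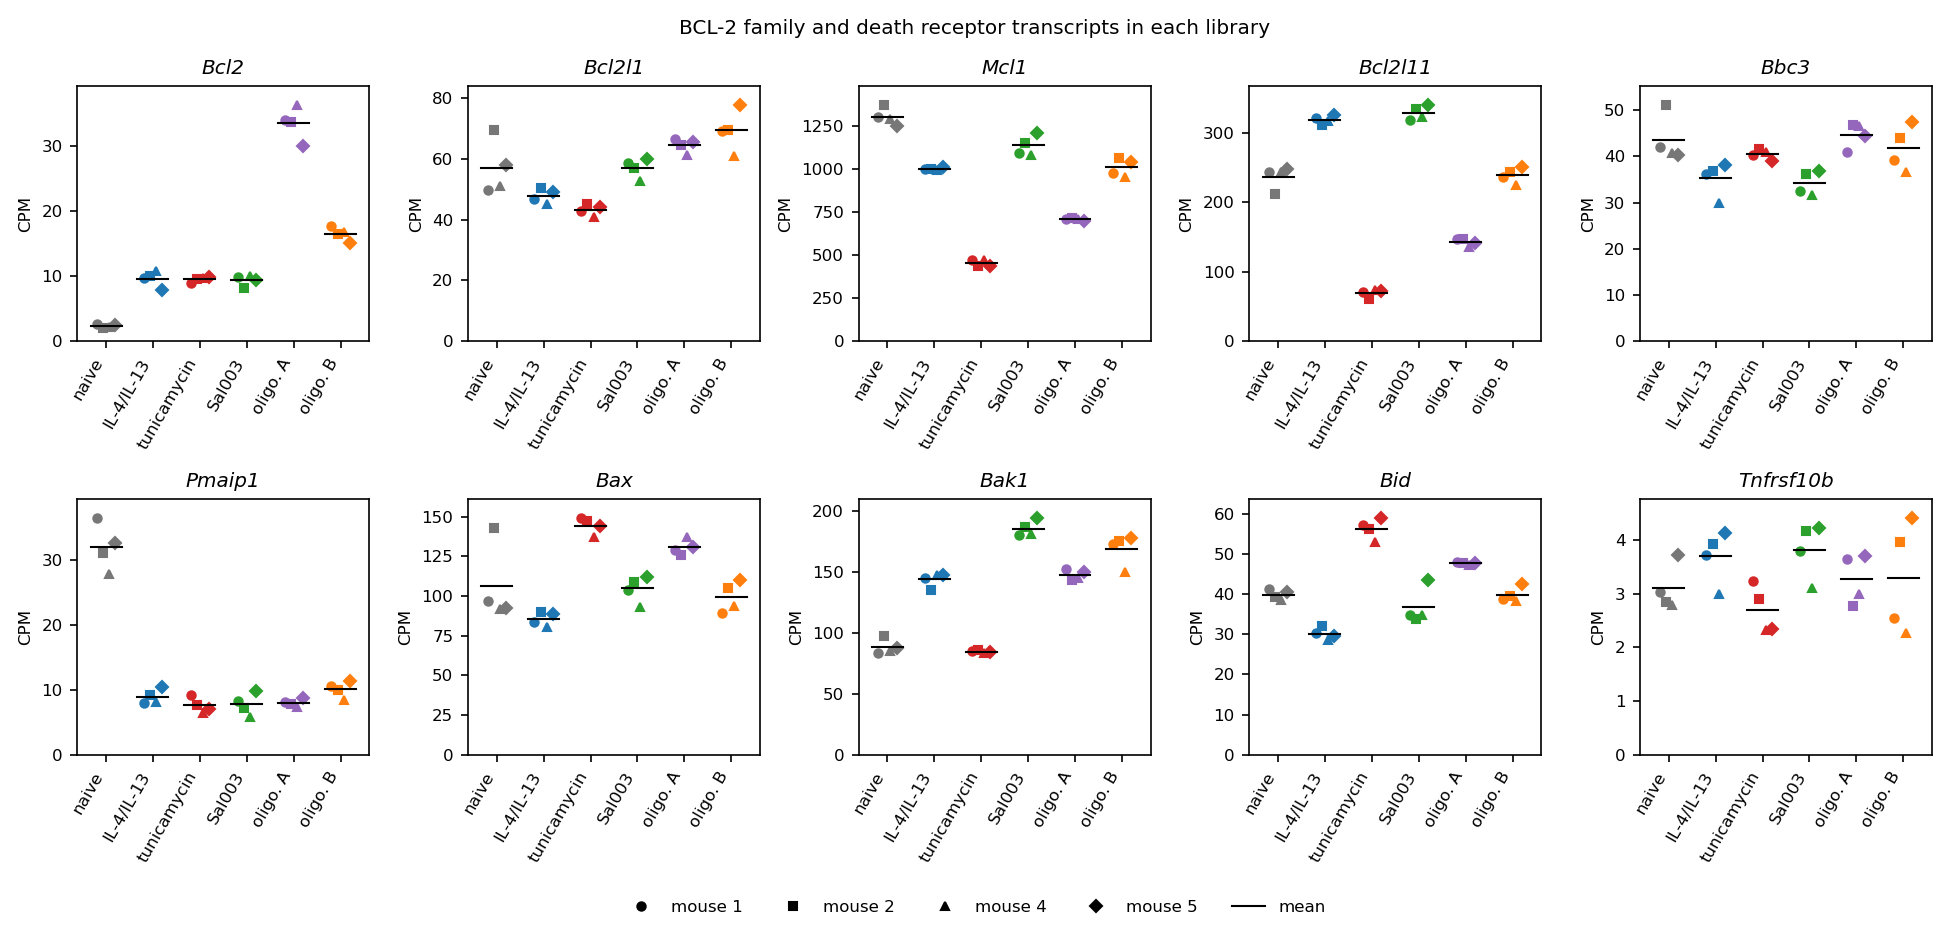
CPM of each of the 10 genes in every library, in 6 groups of 4 mice, with the group mean as a line. Bcl2 is lowest in naive libraries and highest in oligomycin set A, Mcl1 and Bcl2l11 are lowest with tunicamycin, and Bid is highest there, while the tunicamycin libraries of Bax overlap those of set A and 1 naive library.

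*Bcl2* (ENSMUSG00000057329, chromosome 1, 106465908 to 106642060), the founding pro-survival member, had the largest change of the 10 genes in both oligomycin sets. Its levels in mice 1, 2, 4 and 5 were 2.68, 2.1, 2.15 and 2.53 CPM in naive macrophages and 9.69, 10.1, 10.8 and 7.89 CPM with IL-4/IL-13. The groups did not overlap, and *Bcl2* rose 4.05-fold with the cytokines (log2 2.02 ± 0.11, SE, adjusted p = 5.3e-14). In oligomycin set A the levels were 34.1, 33.7, 36.4 and 30 CPM, and in set B 17.7, 16.5, 16.8 and 15.2 CPM. All 8 oligomycin libraries lay above all libraries of the other groups. The rise over IL-4/IL-13 was 3.47-fold in set A (log2 1.8 ± 0.08, adjusted p = 1.9e-15) and 1.71-fold in set B (log2 0.77 ± 0.09, adjusted p = 4.7e-08). Tunicamycin libraries stood at 8.99, 9.66, 9.81 and 9.93 CPM and Sal003 libraries at 8.18 to 10 CPM, inside or next to the IL-4/IL-13 range. Neither differed detectably from IL-4/IL-13, with log2 changes of -0.01 ± 0.09 (adjusted p = 0.94) and -0.04 ± 0.09 (adjusted p = 0.75). The counts behind these levels ran from 37 to 721 per library, and 6.1% of the gene's exonic bases are shared with an antisense transcript, D630008O14Rik.

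*Bcl2l1* (ENSMUSG00000007659, chromosome 2, 152622582 to 152673655), which encodes BCL-XL, moved little. It stood at 46.8, 50.3, 45 and 49 CPM with IL-4/IL-13 and rose to 61.3 to 66.4 CPM in set A (1.35-fold, adjusted p = 4.1e-05) and to between 60.9 and 77.7 CPM in set B (1.45-fold, adjusted p = 3.2e-06), with no overlap. Sal003 raised it 1.2-fold (log2 0.26 ± 0.08, adjusted p = 0.0097). With tunicamycin it lay at 40.8 to 45 CPM, and the difference was not called in the main model (log2 -0.15, adjusted p = 0.11). It was called with the mouse as a block (log2 -0.15, adjusted p = 0.04). The same held with at least 10 counts required in every library (log2 -0.19, adjusted p = 0.037). It was also called in a fit of those 2 groups alone (log2 -0.17, adjusted p = 0.0029). Naive libraries held 49.8, 69.5, 51.2 and 58 CPM, with mouse 2 the highest. The fall with IL-4/IL-13 (log2 -0.26 ± 0.08, adjusted p = 0.0081) was not called without that library (log2 -0.14, adjusted p = 0.066). An opposite-strand transcript, Gm74855, covers 9.3% of its exonic bases.

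*Mcl1* (ENSMUSG00000038612, chromosome 3, 95566026 to 95570487) had the most counts of the 10 genes. Its levels were 996, 1000, 995 and 1010 CPM with IL-4/IL-13, 473, 436, 471 and 438 CPM with tunicamycin, and 711, 717, 707 and 697 CPM in set A. Set B libraries held 978, 1060, 953 and 1040 CPM. Tunicamycin libraries were the lowest and set A libraries the next lowest, and neither group overlapped any other. *Mcl1* fell to 0.454 of the IL-4/IL-13 level with tunicamycin (log2 -1.14 ± 0.05, adjusted p = 1.8e-17) and to 0.707 in set A (log2 -0.50 ± 0.04, adjusted p = 4.0e-10). In set B it did not differ detectably (log2 0.01 ± 0.04, adjusted p = 0.89). Sal003 libraries were higher at 1080 to 1210 CPM (1.13-fold, adjusted p = 0.0014). Naive libraries, at 1250 to 1370 CPM, lay above all others that had IL-4/IL-13, and the fall with the cytokines was to 0.768 (log2 -0.38 ± 0.04, adjusted p = 5.6e-08).

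*Bcl2l11* (ENSMUSG00000027381, chromosome 2, 127967958 to 128004476) encodes BIM, a BH3-only protein that binds every pro-survival member and drives death after growth factor loss. It had the widest change of the 10 genes with tunicamycin. IL-4/IL-13 libraries held 321, 311, 317 and 325 CPM, tunicamycin libraries 70.7, 60.6, 73.5 and 72 CPM, set A libraries 147, 147, 136 and 141 CPM and set B libraries 237, 244, 225 and 250 CPM. These 4 groups did not overlap, with IL-4/IL-13 highest, then set B, set A and tunicamycin. *Bcl2l11* fell to 0.217 of the IL-4/IL-13 level with tunicamycin (log2 -2.20 ± 0.06, adjusted p = 3.7e-21), to 0.449 in set A (log2 -1.16 ± 0.05, adjusted p = 2.1e-15) and to 0.751 in set B (log2 -0.41 ± 0.05, adjusted p = 4.8e-07). With Sal003 it lay at 318 to 340 CPM and was not called (log2 0.04 ± 0.05, adjusted p = 0.52). The cytokines alone had raised it 1.34-fold over naive libraries, which held 212 to 248 CPM (log2 0.43 ± 0.05, adjusted p = 2.0e-07). Tunicamycin libraries thus lay far below the naive level as well, with no overlap.

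**Figure D3:**
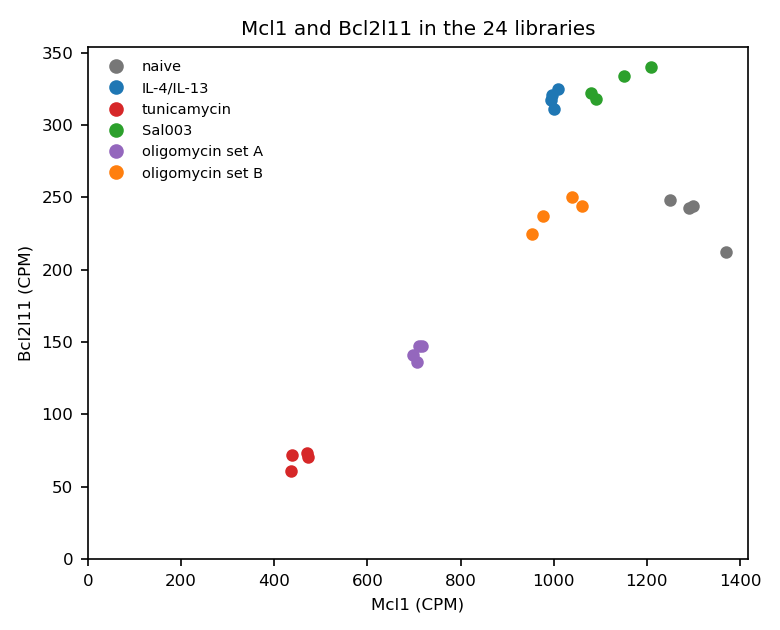
CPM of Mcl1 (x axis) and Bcl2l11 (y axis), 1 point per library, coloured by group. Both genes are lower in set A than in IL-4/IL-13 libraries and lowest with tunicamycin, set B has less Bcl2l11 at a like level of Mcl1, and the naive libraries have the most Mcl1 with intermediate Bcl2l11.

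*Bbc3* (ENSMUSG00000002083, chromosome 7, 16042318 to 16052130), which encodes the p53 target PUMA, stayed within a narrow range. Its level was 36.1, 36.9, 29.8 and 38.1 CPM with IL-4/IL-13 and 40.3, 41.6, 40.9 and 38.9 CPM with tunicamycin. The tunicamycin rise of 1.15-fold (log2 0.20 ± 0.09, adjusted p = 0.037) was slight. It was not called without IL-4/IL-13 mouse 4 (log2 0.13, adjusted p = 0.17), without tunicamycin mouse 1, 2 or 4 (adjusted p = 0.054, 0.074 and 0.062), by DESeq2 (adjusted p = 0.051) or with at least 10 counts required in every library (log2 0.15, adjusted p = 0.1). Libraries of set A at 40.9 to 46.7 CPM were 1.27-fold higher than IL-4/IL-13 (log2 0.34 ± 0.08, adjusted p = 9.5e-04). Set B libraries at 36.7 to 47.4 CPM overlapped the IL-4/IL-13 range, and their 1.19-fold rise (adjusted p = 0.015) was not called without IL-4/IL-13 mouse 4 (adjusted p = 0.078) or set B mouse 5 (adjusted p = 0.082). With Sal003 the level was 31.6 to 36.8 CPM and not called (adjusted p = 0.73). Naive libraries held 42.1, 51.1, 40.7 and 40.3 CPM, with mouse 2 the highest, and *Bbc3* fell to 0.809 of that with the cytokines (adjusted p = 0.0032). The log2 change of this fall, -0.31 ± 0.08, lay between -0.34 and -0.21 with 1 library left out, and it stayed called.

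*Pmaip1* (ENSMUSG00000024521, chromosome 18, 66591604 to 66598636) encodes NOXA, a BH3-only protein that binds MCL-1. It separated naive cells from all others. Naive libraries held 36.4, 31, 27.8 and 32.6 CPM, and IL-4/IL-13 libraries 7.96, 9.13, 8.06 and 10.4 CPM. The fall with the cytokines, to 0.278 (log2 -1.85 ± 0.13, adjusted p = 3.0e-12), was seen in 4 of 4 mice. None of the stressors changed it at the threshold: tunicamycin libraries lay at 6.35 to 9.24 CPM, Sal003 at 5.83 to 9.78 CPM, set A at 7.33 to 8.69 CPM, set B at 8.37 to 11.3 CPM, and these ranges overlapped the IL-4/IL-13 range. For tunicamycin the log2 change of -0.22 ± 0.14 (adjusted p = 0.14) was called when the mouse was a block (log2 -0.23, adjusted p = 0.04) and when tunicamycin mouse 1 was left out (log2 -0.33, adjusted p = 0.042).

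*Bid* (ENSMUSG00000004446, chromosome 6, 120862525 to 120894171) encodes the BH3-only protein that caspase-8 cleaves, which links death receptors to mitochondria. It rose with every stressor and fell with the cytokines alone. IL-4/IL-13 libraries held 30.3, 32.2, 28.6 and 29.6 CPM, tunicamycin libraries 57.3, 56.2, 53.1 and 59 CPM and set A libraries 48, 47.7, 47.2 and 47.8 CPM. Tunicamycin libraries were the highest and set A libraries the next highest of all groups, without overlap. The rises were 1.87-fold with tunicamycin (log2 0.90 ± 0.06, adjusted p = 1.1e-12), 1.58-fold in set A (log2 0.66 ± 0.06, adjusted p = 8.8e-10), 1.32-fold in set B (38.4 to 42.5 CPM, adjusted p = 5.8e-06) and 1.22-fold with Sal003 (33.9 to 43.5 CPM, adjusted p = 4.6e-04). The log2 change with Sal003, 0.29 ± 0.06, dropped to 0.19 without Sal003 mouse 5. Naive libraries held 38.5 to 41.3 CPM, and the fall with IL-4/IL-13 was to 0.757 (log2 -0.40 ± 0.06, adjusted p = 4.3e-06). *Bid* overlaps *Bcl2l13* on the opposite strand over 34.5% of its exonic bases, and whether the counting used strand is not given in the sources used here. In exact stretches of 100 bases on either strand, 61.3% of the canonical transcript of *Bid* is shared with *Bcl2l13*. With the cytokines *Bcl2l13* moved the other way, rising 1.46-fold (adjusted p = 1.2e-08), as it did with tunicamycin, falling to 0.753 (adjusted p = 7.6e-07). Its mean level was 57.4 CPM with IL-4/IL-13, 54.6 CPM in set A, 61.6 CPM in set B and 60.6 CPM with Sal003. The part of this overlap in the *Bid* counts was not tested.

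*Bax* (ENSMUSG00000003873, chromosome 7, 45111015 to 45116325) and *Bak1* (ENSMUSG00000057789, chromosome 17, 27238784 to 27247983) encode the effectors that open the outer membrane. *Bax* stood at 83.5, 89.9, 80.2 and 88.9 CPM with IL-4/IL-13, 149, 147, 137 and 144 CPM with tunicamycin and 129, 126, 137 and 131 CPM in set A. Both stressed groups lay above the IL-4/IL-13 range, and *Bax* rose 1.68-fold with tunicamycin (log2 0.75 ± 0.10, adjusted p = 2.5e-07) and 1.53-fold in set A (log2 0.61 ± 0.10, adjusted p = 7.9e-06). With Sal003, at 93.3 to 112 CPM, the rise was 1.22-fold (adjusted p = 0.019), and it was not called without IL-4/IL-13 mouse 4 (adjusted p = 0.055) or Sal003 mouse 5 (adjusted p = 0.062). *Bax* lay at 89.4 to 110 CPM in set B and was not called (log2 0.21 ± 0.10, adjusted p = 0.075). It was called there with the mouse as a block (log2 0.21, adjusted p = 0.039), with no filter on low counts (adjusted p = 0.033), in a fit of those 2 groups alone (adjusted p = 0.024) and without set B mouse 1 (log2 0.26, adjusted p = 0.043). Naive libraries held 96.5, 143, 91.5 and 92.7 CPM, with mouse 2 far above the rest. The fall with the cytokines (log2 -0.31 ± 0.10, adjusted p = 0.011) shrank to -0.12 without naive mouse 2 and was then not called (adjusted p = 0.1). It was not called in a fit of those 2 groups alone either (adjusted p = 0.07). A same-strand transcript, Gm45808, covers 10.3% of the exonic bases of *Bax*. In exact stretches of 100 bases on either strand, 18.4% of the canonical transcript of *Bax* is shared with Gm45808.

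*Bak1* went the opposite way to *Bax* with tunicamycin and with the cytokines, where the fall of *Bax* was not called without naive mouse 2. Its levels were 83.5, 97.1, 85.4 and 87.6 CPM in naive libraries, 145, 135, 147 and 147 CPM with IL-4/IL-13 and 84.9, 86, 83 and 84.2 CPM with tunicamycin. It rose 1.62-fold with the cytokines (log2 0.70 ± 0.05, adjusted p = 1.4e-11). With tunicamycin it fell to 0.589 of the IL-4/IL-13 level (log2 -0.76 ± 0.05, adjusted p = 1.0e-12), and its range there overlapped the naive range. Sal003 libraries were the highest at 180, 187, 181 and 194 CPM (1.29-fold over IL-4/IL-13, adjusted p = 1.2e-06). Set B at 150 to 178 CPM was 1.18-fold higher (adjusted p = 3.4e-04), and set A at 143 to 152 CPM was not called (log2 0.04 ± 0.05, adjusted p = 0.53). Opposite-strand transcripts, of *Ggnbp1* and Gm50253, cover 25.5% of its exonic bases.

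*Tnfrsf10b* (ENSMUSG00000022074, chromosome 14, 70004916 to 70021860) encodes the TRAIL receptor DR5, a known CHOP target in several cell types. It had few counts, 40 to 114 per library, and 7.2% of its canonical transcript is shared with other genes in exact stretches of 100 bases. Its levels in mice 1, 2, 4 and 5 were 3.73, 3.93, 3 and 4.13 CPM with IL-4/IL-13 and 3.23, 2.9, 2.33 and 2.34 CPM with tunicamycin, and each mouse had less with tunicamycin while the ranges overlapped. The fall was called (log2 -0.45 ± 0.19, adjusted p = 0.033), but not without IL-4/IL-13 mouse 1 (log2 -0.44, adjusted p = 0.057), mouse 2 (log2 -0.41, adjusted p = 0.074) or mouse 5 (log2 -0.36, adjusted p = 0.11), nor without tunicamycin mouse 4 or 5 (log2 -0.38 each, adjusted p = 0.091 and 0.094), nor with no filter on low counts (log2 -0.40, adjusted p = 0.062). All 4 other comparisons with naive or IL-4/IL-13 libraries left it uncalled, with log2 changes between -0.17 and 0.25 and an SE of 0.18 each.

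**Figure D4:**
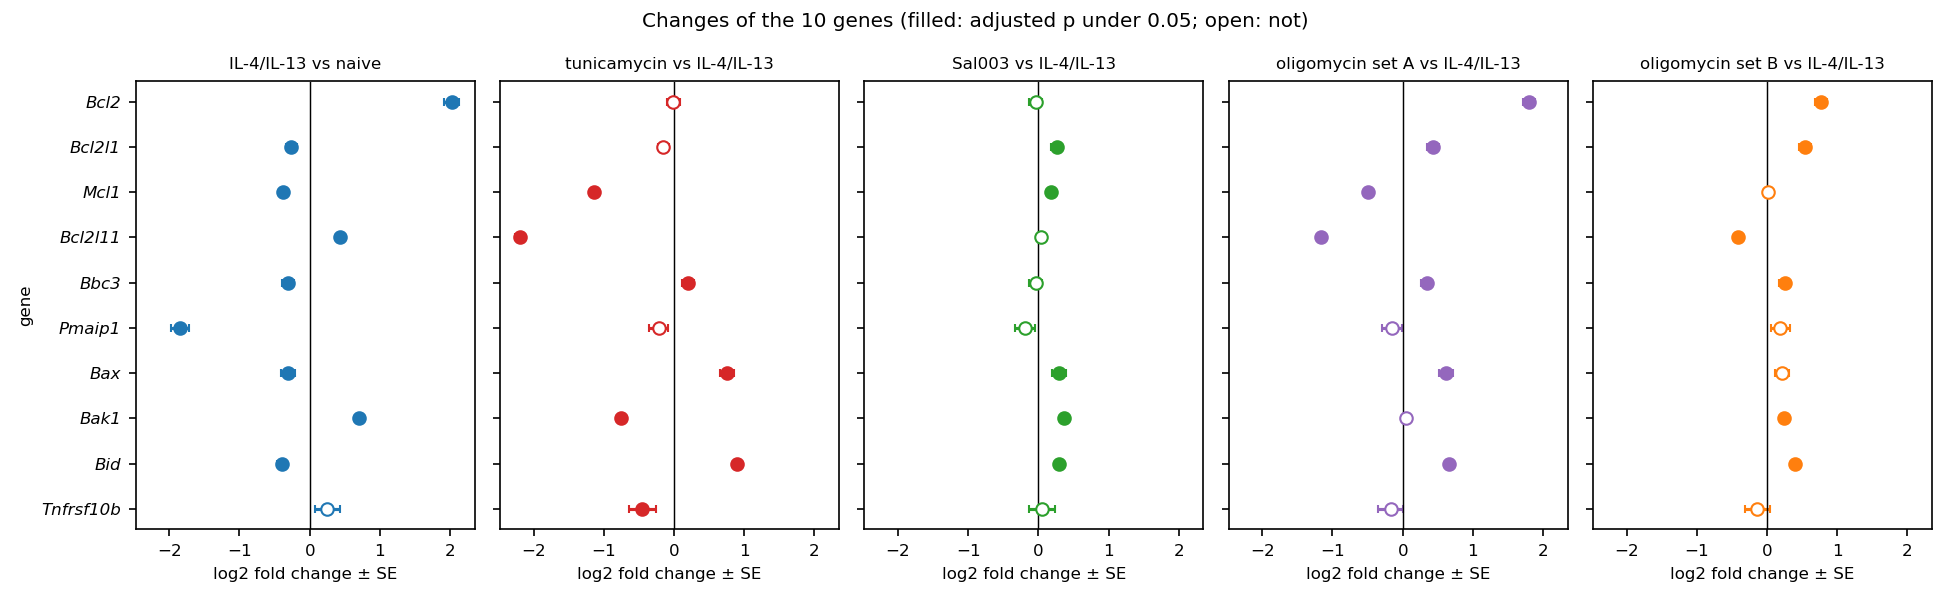
Log2 fold change ± SE of the 10 genes in 5 comparisons, with filled points at an adjusted p under 0.05 and open points above it. Tunicamycin and oligomycin set A share falls of Mcl1 and Bcl2l11 and rises of Bbc3, Bax and Bid, Bcl2 rises in the oligomycin sets and Bak1 falls with tunicamycin. Bcl2l11 also falls and Bbc3 and Bid also rise in set B, and Bax and Bid also rise with Sal003. The Bbc3 rise with tunicamycin is slight and was not called under several other settings.

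The 2 oligomycin sets differed from each other in 7 of the 10 genes. Over all tested genes 19.9% were called higher in set A, 21.3% lower and 2.62% with at least a 2.5-fold difference. *Bcl2* (2.03-fold, adjusted p = 2.0e-10), *Bax* (1.32-fold, adjusted p = 0.0023) and *Bid* (1.2-fold, adjusted p = 0.0012) were higher in set A. *Mcl1* (0.703, adjusted p = 1.4e-09), *Bcl2l11* (0.598, adjusted p = 6.8e-11), *Bak1* (0.872, adjusted p = 0.0027) and *Pmaip1* (0.791, adjusted p = 0.046) were lower. The *Pmaip1* difference was lost when any 1 of 6 libraries was left out, set A mouse 1, 2 or 4 or set B mouse 1, 2 or 5, with log2 values from -0.35 to -0.27 and adjusted p from 0.071 to 0.15. *Bcl2l1* (adjusted p = 0.3), *Bbc3* (adjusted p = 0.41) and *Tnfrsf10b* (adjusted p = 0.92) were not called.

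Tunicamycin and oligomycin set A were compared directly as well, against a background of 31.4% of tested genes higher with tunicamycin, 32.1% lower and 14.2% past 2.5-fold. *Bid* was higher with tunicamycin (1.18-fold, adjusted p = 9.0e-04). *Bcl2* was lower at 0.286 of the set A level (adjusted p = 1.1e-15), as were *Bcl2l11* (0.484, adjusted p = 1.9e-14), *Bak1* (0.574, adjusted p = 7.3e-13), *Mcl1* (0.642, adjusted p = 3.9e-12) and *Bcl2l1* (0.671, adjusted p = 8.0e-07). The 4 others were not called, *Bax* with a log2 difference of 0.14 ± 0.10, *Bbc3* with -0.14 ± 0.08, *Pmaip1* with -0.07 ± 0.14 and *Tnfrsf10b* with -0.27 ± 0.19. In a fit of these 2 groups alone *Bax* (adjusted p = 0.0024) and *Bbc3* (adjusted p = 0.013) were also called.

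Across the 24 libraries, which share groups and mice and so are described without a test, log2 CPM of *Mcl1* and *Bcl2l11* moved most closely together (Pearson's r = 0.92), followed by *Bax* and *Bid* (r = 0.86). *Mcl1* and *Bcl2l11* did not move together in every comparison. With the cytokines *Mcl1* fell to 0.768 and *Bcl2l11* rose 1.34-fold, and in set B only *Bcl2l11* fell (0.751, against 1.01 for *Mcl1*). *Bcl2l11* ran against *Bid* (r = -0.90) and *Bax* (r = -0.82), and *Bcl2* against *Pmaip1* (r = -0.76). For this last pair, naive libraries had the most *Pmaip1* (27.8 to 36.4 CPM) and the least *Bcl2* (2.1 to 2.68 CPM). In both oligomycin sets *Bcl2* rose over IL-4/IL-13, and *Pmaip1* was not called. Among all tested genes, the patterns most like that of *Bcl2* were those of *Rgl1* (r = 0.986) and the glucose transporter gene *Slc2a1* (r = 0.968). Those most like *Mcl1* were *Efhd2* (0.992) and *Ap1b1* (0.987), and those most like *Bcl2l11* were *Themis2* (0.989) and *Map3k12* (0.988). *Bid* was most like *Casp4* (0.968) and *Cd86* (0.963), *Bak1* like *Ctsz* (0.982) and *Rnf19b* (0.982), *Bax* like *Il3ra* (0.951) and *Ino80e* (0.942), and *Pmaip1* like *Zmynd15* (0.968) and *Arl5c* (0.955). The closest genes to *Bcl2l1* (*Cdkn1c*, 0.896, and *Mill2*, 0.894), *Bbc3* (Gm5817, 0.872, and *Cyp4f13*, 0.870) and *Tnfrsf10b* (*Airn*, 0.773, and *Zbtb5*, 0.737) were less like them.

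Of the stress-induced factors upstream of these genes, *Ddit3* and *Atf4* rose with each stressor. *Ddit3*, which encodes CHOP, stood at 33.8, 31.9, 30.2 and 33.7 CPM with IL-4/IL-13 and at 612, 598, 590 and 600 CPM with tunicamycin, 18.5-fold higher (log2 4.21 ± 0.12, adjusted p = 9.4e-21). It rose 6.98-fold in set A (adjusted p = 5.3e-17), 3.8-fold in set B (adjusted p = 1.8e-13) and 1.96-fold with Sal003 (adjusted p = 5.1e-08). Other transcripts cover 82.4% of its exonic bases on the opposite strand, so its counts are uncertain. *Atf4*, which has no such overlap, rose 8.06-fold with tunicamycin (log2 3.01 ± 0.08, adjusted p = 3.2e-21), 5.19-fold in set A, 3.52-fold in set B and 1.52-fold with Sal003 (adjusted p at most 1.8e-07). Beside these rises, of the 4 textbook targets *Bcl2l11* fell with tunicamycin and in both oligomycin sets, *Bbc3* rose by 1.15-fold to 1.27-fold in the same groups, *Pmaip1* was not called with any stressor and *Tnfrsf10b* was called only with tunicamycin, as a fall. That fall and the *Bbc3* rises with tunicamycin and in set B were not called when some single libraries were left out. *Atf3*, a stress factor that the cytokines raised 2.89-fold (adjusted p = 6.0e-19), fell to 0.359 with tunicamycin (adjusted p = 2.5e-19), to 0.746 with Sal003 (adjusted p = 3.7e-08) and to 0.832 in set A (adjusted p = 2.0e-05). *Foxo3*, an activator of *Bcl2l11* and *Bbc3* in other cells, fell to 0.45 with tunicamycin (adjusted p = 1.0e-14) and 0.584 in set A (adjusted p = 4.1e-11), and was not called in set B (adjusted p = 0.095) or with Sal003 (adjusted p = 0.081). *Trp53* mRNA did not differ detectably with tunicamycin (log2 -0.03 ± 0.05, adjusted p = 0.63) and fell to between 0.769 and 0.803 with the other stressors (adjusted p at most 1.5e-06).

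Of 9 upstream factor genes tested, 4 rose and 4 fell with tunicamycin, 4 rose and 5 fell in set A, 3 rose and 4 fell in set B, 2 rose and 4 fell with Sal003, and 5 rose and 2 fell with the cytokines. Of all tested genes, 38.7% were called higher and 37.6% lower with tunicamycin, 34% and 32.2% in set A, and 27.9% and 26.4% in set B. The shares were 25.9% and 24.6% with Sal003 and 30.1% and 30.4% with the cytokines. Largest falls within the list were those of *Atf6* with the cytokines (0.773, adjusted p = 9.5e-04) and, in set B, *E2f1* (0.733, adjusted p = 2.0e-06). *E2f1* stood lower still in set A (0.649, adjusted p = 5.8e-09), and *Atf6* rose 3.25-fold with tunicamycin (adjusted p = 8.2e-15). The list was put together with earlier results of these data known, as were the lists that follow, and none was given a test of its own.

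Of 16 other BCL-2 family genes listed, 11 were tested, and 5 rose and 5 fell with tunicamycin, beside 38.7% and 37.6% of all tested genes. The median size of their log2 change was 1.00, beside 0.58 over all tested genes. The *Bcl2a1* genes, which encode copies of the pro-survival protein A1, had the largest rises. *Bcl2a1a* stood at 0.278, 0.353, 0.211 and 0.486 CPM with IL-4/IL-13 (4 to 8 counts), 63.3, 80.8, 63 and 68.8 CPM with tunicamycin and 5.63 to 7.2 CPM in set A. The rise was 206-fold with tunicamycin (log2 7.69 ± 0.18, adjusted p = 7.1e-22) and 19.4-fold in set A (adjusted p = 2.8e-14), from a base of few counts. *Bcl2a1d* rose 37-fold with tunicamycin (2.09 to 77.8 CPM on average, adjusted p = 1.7e-22), 7.61-fold in set A (adjusted p = 2.5e-16), 3.89-fold in set B (adjusted p = 7.1e-12) and 3.67-fold with Sal003 (adjusted p = 2.5e-11), and *Bcl2a1b* rose 11.3-fold with tunicamycin (adjusted p = 9.6e-16). The 3 copies share 71.7% to 91.4% of their canonical transcripts in exact stretches of 100 bases, so their counts cannot be assigned to 1 copy with certainty. Neutrophils also express A1. The summed neutrophil granule genes lay at 0.0567 to 0.286 CPM in the tunicamycin libraries and at 22.3 to 40.6 CPM with IL-4/IL-13. Which cells held the A1 transcripts was not tested.

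*Bcl2l2*, which encodes the pro-survival protein BCL-W, rose 2-fold with tunicamycin (adjusted p = 7.9e-17) and rose 1.67-fold in set A (adjusted p = 9.8e-14). *Bmf*, a BH3-only gene, had the largest fall of this list with the cytokines. It stood at 116, 99, 111 and 113 CPM in naive libraries and 27.1, 23.9, 24.2 and 29.2 CPM with IL-4/IL-13, a fall to 0.237 (log2 -2.08 ± 0.09, adjusted p = 3.7e-16), and it fell further to 0.51 of that with tunicamycin (adjusted p = 3.1e-09) and 0.386 in set A (adjusted p = 1.5e-11). *Bcl2l12* fell to 0.368 with tunicamycin (adjusted p = 3.5e-12), to 0.643 in set A (adjusted p = 2.8e-06), to 0.695 in set B (adjusted p = 5.7e-05) and to 0.764 with Sal003 (adjusted p = 0.0016). In this list 4 rose and 3 fell with the cytokines, 4 rose and 1 fell with Sal003, 5 rose and 2 fell in set A, and 5 rose and 3 fell in set B. Beside these, 30.1% of all tested genes were called higher and 30.4% lower with the cytokines, and 25.9% and 24.6% with Sal003. In set A the shares were 34% and 32.2%, and in set B 27.9% and 26.4%.

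**Figure D5:**
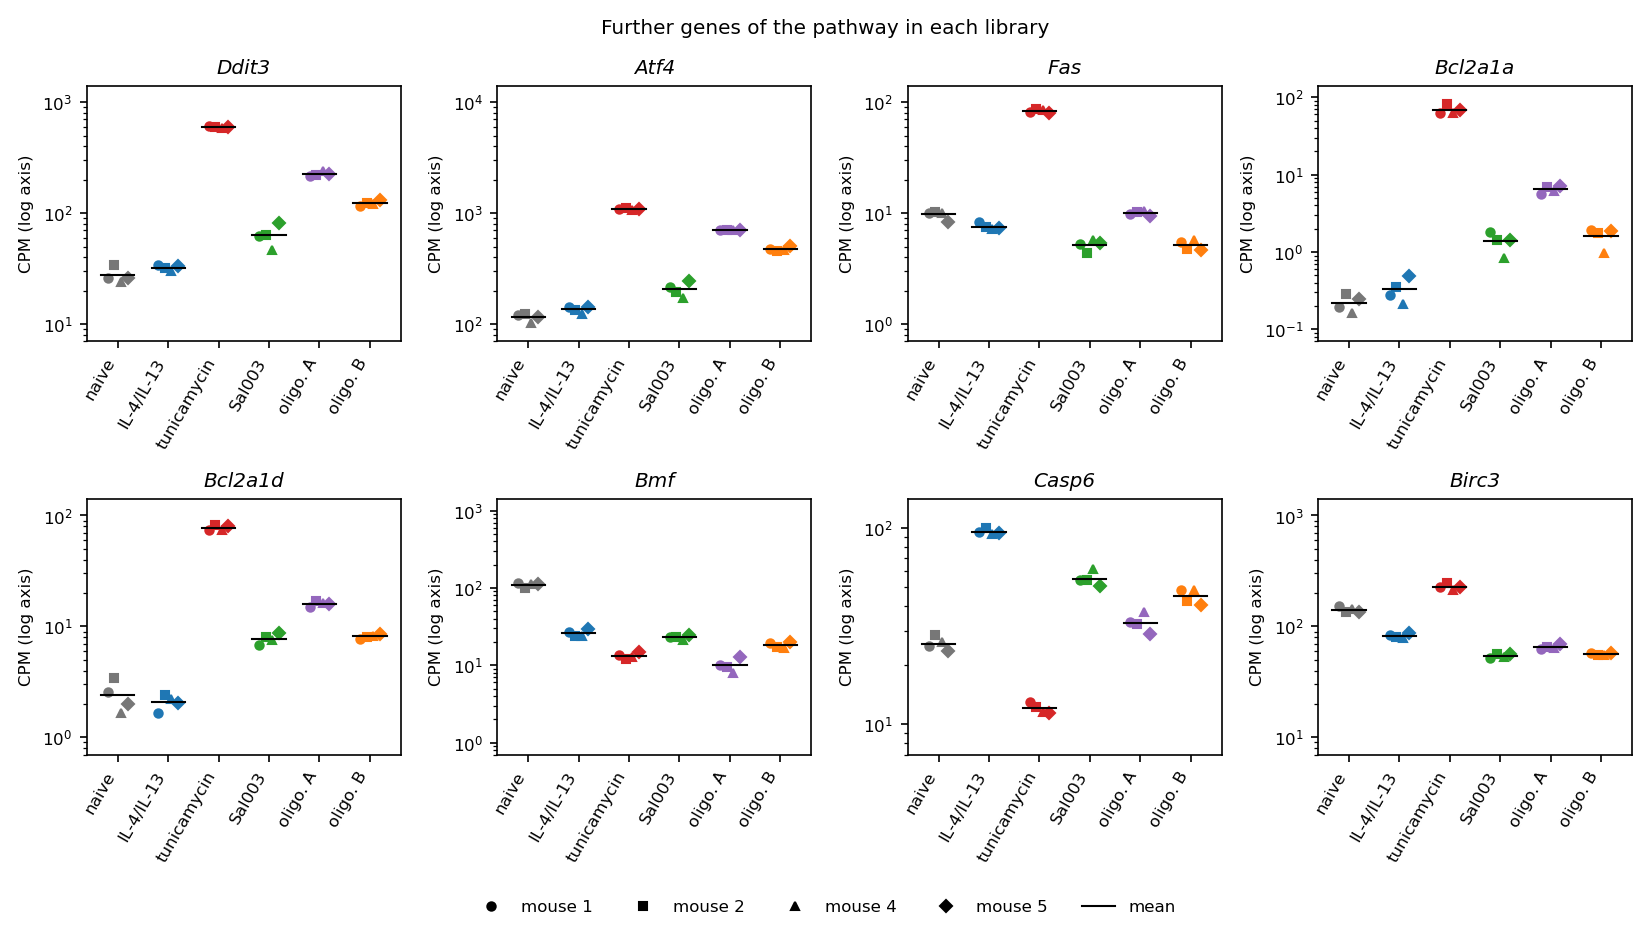
CPM on log axes of 8 further genes in every library, with group means as lines. Ddit3, Atf4, Fas, Bcl2a1a, Bcl2a1d and Birc3 are highest with tunicamycin, where Casp6 is lowest, and Bmf is highest in naive libraries.

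All 12 genes of the apoptosome and caspase list were tested, and 6 fell and 4 rose with tunicamycin, beside 37.6% and 38.7% of all tested genes. With the other stressors 6 fell and 2 rose in set A (32.2% and 34% of all tested genes), 7 fell and 1 rose in set B (26.4% and 27.9%), and 6 fell and 1 rose with Sal003 (24.6% and 25.9%). The executioner gene *Casp6*, which the cytokines had raised 3.71-fold (adjusted p = 8.8e-17), fell to 0.126 with tunicamycin (adjusted p = 1.2e-20), 0.345 in set A (adjusted p = 2.8e-15), 0.47 in set B (adjusted p = 4.1e-12) and 0.579 with Sal003 (adjusted p = 1.3e-09). *Birc3*, which encodes the inhibitor of apoptosis cIAP2, rose 2.77-fold with tunicamycin (82.4 to 228 CPM on average, adjusted p = 2.1e-18) after a fall to 0.581 with the cytokines (adjusted p = 2.0e-12), and fell to between 0.66 and 0.793 with the other stressors (adjusted p at most 5.0e-06). *Htra2* rose by 1.43-fold with tunicamycin (adjusted p = 6.4e-09), 1.11-fold in set A (adjusted p = 0.022) and 1.2-fold in set B (adjusted p = 2.6e-04), and *Apaf1*, the apoptosome scaffold, by 1.12-fold with Sal003 (adjusted p = 0.029), against a fall to 0.665 with tunicamycin (adjusted p = 8.7e-09). Overlapping transcripts cover 66.9% of *Htra2* exonic bases on the opposite strand. *Diablo*, covered over 56.0% on its own strand, was 1.43-fold higher in set A than in set B (adjusted p = 0.0032).

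Of the 11 death receptor and complex genes, all tested, 6 rose and 5 fell with tunicamycin, beside 38.7% and 37.6% of all tested genes. *Fas*, a death receptor, stood at 8.3, 7.46, 7.27 and 7.28 CPM with IL-4/IL-13 and 81.1, 86.5, 84.5 and 80.2 CPM with tunicamycin. It rose 11-fold (log2 3.45 ± 0.08, adjusted p = 1.2e-22), while *Tnfrsf10b* had a fall that was not called under several other settings. *Cflar*, which encodes the caspase-8 inhibitor FLIP, rose 3.43-fold with tunicamycin (adjusted p = 1.5e-18), and the ligand gene *Tnfsf10* fell to 0.143 (4.8 to 0.673 CPM on average, adjusted p = 6.0e-09). In set A *Fas* rose 1.32-fold (adjusted p = 1.7e-04), and it fell to 0.678 in set B (adjusted p = 1.2e-05) and 0.686 with Sal003 (adjusted p = 2.2e-05). *Mlkl*, the executor of necroptosis, rose 3-fold with Sal003 (adjusted p = 5.0e-10), 2.52-fold in set A (adjusted p = 4.6e-09) 2.48-fold in set B (adjusted p = 1.2e-08) and 1.34-fold with tunicamycin (adjusted p = 0.0094). *Ripk3*, its activating kinase, rose 2.34-fold with the cytokines (adjusted p = 7.9e-15) and fell with every stressor, to 0.347 with tunicamycin (adjusted p = 4.1e-17), 0.438 in set A (adjusted p = 9.8e-15), 0.621 in set B (adjusted p = 4.6e-10) and 0.76 with Sal003 (adjusted p = 3.9e-06). In this list 2 rose and 7 fell with the cytokines, 7 rose and 2 fell with Sal003, 5 rose and 5 fell in set A, and 5 rose and 2 fell in set B. The shares of all tested genes called higher and lower were 30.1% and 30.4% with the cytokines and 25.9% and 24.6% with Sal003. They were 34% and 32.2% in set A, and 27.9% and 26.4% in set B.

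Among 12 genes whose proteins act on BCL-2 family members, all tested, 7 rose and 4 fell with tunicamycin, 5 rose and 2 fell both with Sal003 and in set A, 7 rose and 2 fell in set B, and 3 rose and 4 fell with the cytokines. Over all tested genes, 38.7% were called higher and 37.6% lower with tunicamycin, 25.9% and 24.6% with Sal003, and 34% and 32.2% in set A. The shares were 27.9% and 26.4% in set B and 30.1% and 30.4% with the cytokines. *Fbxw7*, which encodes a ubiquitin ligase subunit that targets MCL-1, rose 2.28-fold in set A (adjusted p = 1.6e-14) and 1.36-fold to 1.47-fold with the other stressors (adjusted p at most 3.0e-06). *Marchf5*, a mitochondrial ubiquitin ligase gene, fell to 0.643 with the cytokines (adjusted p = 2.4e-10) and rose with every stressor, 1.63-fold with Sal003 (adjusted p = 7.5e-11), 1.8-fold in set A (adjusted p = 7.1e-13), 1.82-fold in set B (adjusted p = 1.6e-12) and 1.26-fold with tunicamycin (adjusted p = 5.0e-06). *Vdac1* rose 1.69-fold with the cytokines (adjusted p = 8.3e-12) and *Vdac3* 2.16-fold with tunicamycin (adjusted p = 6.3e-14) and 1.78-fold in set A (adjusted p = 4.2e-11). The IP3 receptor gene *Itpr3* fell with each stressor, to 0.119 with tunicamycin (adjusted p = 4.1e-15), 0.451 in set A (adjusted p = 2.7e-08), 0.704 with Sal003 (adjusted p = 0.0016) and 0.759 in set B (adjusted p = 0.0089). Against set A, *Usp9x*, which encodes a deubiquitinase of MCL-1, was 1.53-fold higher with tunicamycin (adjusted p = 0.0013), and *Itpr1* stood at 0.585 of the set B level in set A (adjusted p = 5.2e-05).

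Between the oligomycin sets the same lists split as follows, with set A against set B, beside 19.9% of all tested genes higher and 21.3% lower. Of the other BCL-2 family genes 5 were higher and 3 lower, led by *Bcl2a1a* (3.91-fold, adjusted p = 5.8e-10) and *Bmf* (0.547, adjusted p = 2.8e-07). Of the caspase and apoptosome genes 2 were higher and 6 lower, of the death receptor genes 2 and 4, of the upstream factors 4 and 4, and of the regulators 3 and 3. *Fas* (1.94-fold, adjusted p = 2.5e-09) and *Ddit3* (1.84-fold, adjusted p = 1.2e-07) were among the higher genes. With tunicamycin against set A, 6 other BCL-2 family genes were higher and 4 lower, and the remaining lists had 3 higher and 6 lower, 3 and 5, 6 and 3, and 3 and 7 in the same order. Of all tested genes, 31.4% were higher with tunicamycin and 32.1% lower. *Fas* was 8.31-fold higher with tunicamycin (adjusted p = 1.2e-21).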

How the data were processed

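RNA-seq libraries of BMDM from 4 mice in 6 groups were analysed. Per the labels and methods of the study, the authors prepared libraries from poly(A) RNA, read them as single reads of 150 bases, trimmed adapters (Cutadapt 1.8), took out rRNA and low-complexity reads, mapped to GRCm39 by STAR 2.7 and obtained gene counts from HTSeq 0.9.1. The deposited counts are raw whole numbers for 56884 genes. The strand setting is not given in the sources used here. Totals that name no gene (12.7% to 15.2% of reads per library) were left out. TPM values deposited by the authors from RSEM were not used, because their header could not be matched to the columns, so TPM were calculated from the counts. The M-CSF dose is not given here because the sources differ.

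From the counts, genes were filtered with filterByExpr by group and tested with edgeR 4.0.16 in R 4.3.3 (TMM scaling, quasi-likelihood F test, 1 model over 24 libraries with 1 coefficient per group, Benjamini-Hochberg adjustment over 13679 genes). The code was tested on simulated data. DESeq2 1.42.0, other scaling and filters, the mouse as a block, fits of only the groups compared and leaving out each library were the alternatives. Same-numbered libraries come from the same mouse, and their deviations from the group means correlated (median r = 0.24, above 0.1 in 56 of 60 pairs, against a median of -0.05 and 7 of 180 pairs between different mice). Replicates differed by more than counting noise (chi-square per gene 2.19 to 35.9). Cells of 1 mouse were split over the groups, so each comparison covers 4 mice. The main model had no term for the mouse, and only the fit with the mouse as a block took this pairing into account.

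Gene positions and overlaps are from GENCODE release M39 on GRCm39, a release that may differ from the one used for counting, and 56323 of the 56884 identifiers were found in it. The 10 genes and the further gene lists were chosen with earlier results of these data known. From each further list and comparison, the genes named are the largest rise and the largest fall among those with an adjusted p under 0.05, the same direction in 4 of 4 mice and a mean of at least 50 counts, and for each of the 10 genes the 2 genes of highest Pearson's r of log2 CPM (prior count 2). *Atf4*, *Foxo3* with tunicamycin, *Trp53*, *Bcl2a1b*, *Bcl2l2* and *Cflar* were named after their values were seen, as were further comparisons of genes named by the rule. Some genes that the rule selects are not reported here.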

Additional observations from a re-analysis of the deposited data

Results flagged for a closer look

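Each of the 10 genes was examined in each of the 6 groups for a library whose gap to the nearest of the other 3, relative to the range of the group, was above Dixon's 95% critical value. This held in 5 of 60 groups, where chance flags about 1 in 20. In 3 of the 5 the library was the naive one of mouse 2. It held 143 CPM of *Bax*, against 91.5 to 96.5 CPM in the other naive libraries, 51.1 CPM of *Bbc3*, against 40.3 to 42.1 CPM, and 212 CPM of *Bcl2l11*, against 243 to 248 CPM. The IL-4/IL-13 library of mouse 2 had 135 CPM of *Bak1*, where the other 3 had 145 to 147 CPM. The Sal003 library of mouse 5 had 43.5 CPM of *Bid*, where the other 3 had 33.9 to 34.9 CPM. The cause of these gaps was not tested.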

How the results depend on the processing

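For the 10 genes in 7 comparisons, the call and direction were the same in 407 of 420 values from 6 alternative settings and in 537 of 560 values with 1 library left out. None reversed. With RLE size factors 70 of 70 were the same. The number of the 10 genes called stayed within 1.5 times the main number under every setting, with 1 exception. Genes higher with tunicamycin than in oligomycin set A were 2 instead of 1 when only the 2 groups were fitted. *Bax* was the gene added (log2 0.14, adjusted p = 0.0024), and the cause was not tested. With the mouse as a replicate block, 67 of 70 calls were the same and 3 were gained, *Bax* in set B and *Bcl2l1* and *Pmaip1* with tunicamycin, and the block changed no other call. With 1 library left out, the number falling ranged from 4 to 6 for the cytokines, 3 to 5 for tunicamycin and 3 to 4 between the oligomycin sets, and the number rising from 2 to 3 for tunicamycin, 4 to 6 for set B and 4 to 5 for Sal003. No setting moved the number of all genes called by over 1.5 times. Depth limits *Tnfrsf10b*, at 40 to 114 counts per library, and the low base of *Bcl2a1a*.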
